A study of Mus musculus with 127 samples.

Results

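Transcripts of the Zfp zinc finger genes were followed across synaptic, nuclear, cytosolic and whole cortex RNA of mice with mutations of Chd8, a chromatin remodeller gene linked to autism. Members were all genes whose symbol is Zfp followed by a number and whose mean level in nuclear RNA of germline wild-type (WT) mice was at least 10 CPM (a gene's read counts scaled to the total of its library). The members were thus chosen by measured values, their levels in the 12 germline WT nuclear libraries. This gave 222 members among 374 Zfp genes and 54838 gene rows, and 10965 genes of any kind reached the same level. The other 152 Zfp genes lay below it. Those levels are given as a description and are not a result. The members nearest above the limit were Zfp113 (10.5 CPM), Zfp65 (10.5 CPM) and Zfp605 (10.6 CPM), and the Zfp genes nearest below it were Zfp995 (9.83 CPM), Zfp111 (9.81 CPM) and Zfp3 (9.77 CPM).

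The mice were about 60 days old and of both sexes, and poly(A) RNA of their cortex was sequenced. Germline heterozygotes (HET, Chd8+/-) carried 1 Chd8 allele with a deletion of 5 bp in every cell and were set against WT mice, with 7 HET and 11 WT synaptic, 9 HET and 12 WT nuclear, 7 HET and 5 WT cytosolic, and 16 HET and 15 WT whole cortex libraries. In the conditional line the fractionated mice were all labelled as carrying Camk2a-Cre, which acts in excitatory neurons of the forebrain, so other cortical cells keep their Chd8 alleles. Homozygotes (HOM, Chd8 flox/flox) and heterozygotes (HET, Chd8+/flox) were set against WT mice (Chd8+/+) also labelled with Cre, with 5 HOM, 5 HET and 4 WT synaptic and 3 HOM, 6 HET and 4 WT nuclear libraries. Conditional whole cortex compared 6 Chd8+/flox libraries with Camk2a-Cre and 8 Chd8+/flox libraries without Cre, so Cre and deletion cannot be told apart there. The synaptic fraction was a synaptosome extract and the nuclear fraction a nuclear extract of cortex, in part from the same animals, and both hold RNA of all cortical cell types.

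Zinc finger proteins of the C2H2 type bind DNA through repeated fingers, each held by a zinc ion and joined to the next by a short conserved linker. Many mouse members also carry a KRAB domain near their start, which recruits the corepressor TRIM28 (KAP1) and through it the histone methyltransferase SETDB1, and so silences transposable elements and imprinted loci. Zfp932 and its sister gene Gm15446 repress endogenous retroviruses in mouse embryonic stem cells, and ZFP57 and ZFP445 maintain genomic imprints. The mRNAs are translated in the cytoplasm like others, while their proteins act in the nucleus.

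A coding transcript was annotated for 221 members. A KRAB pattern was found in 104 of them, called KRAB-like here, and not in 117. The number of finger patterns had a median of 10 over these members, 12 in KRAB-like members and 8 in those without the pattern, with a maximum of 36. No finger pattern was found in 5 members, and 1 member, Zfp36 (tristetraprolin, an RNA-binding protein that promotes mRNA decay), has fingers of the CCCH type instead. In all 120 members lay in chromosomal clusters of at least 3 Zfp genes with gaps under 500 kb, and 80 of these were KRAB-like. Chromosome 7 held 60 members and chromosome 17 held 27.

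The coding sequences below show what many of the members share, read from the annotated transcripts (GENCODE M21, GRCm38) and each within 1 exon. The first set is the KRAB A box, printed because KRAB-like members were lower in synaptic RNA more often than members without the pattern. Members at both ends of the range carry the box. Not every KRAB-like member does, and the search did not find it in Zfp799. Capitals mark the codons of the conserved core that begins with leucine and tyrosine. The sites are chr5:110006980-110007051 (plus strand) for Zfp932, chr19:61127457-61127528 (minus) for Zfp950, chr17:23178294-23178365 (minus) for Zfp40, chr7:29775374-29775445 (plus) for Zfp84 and chr7:43586390-43586461 (plus) for Zfp719.
Zfp932: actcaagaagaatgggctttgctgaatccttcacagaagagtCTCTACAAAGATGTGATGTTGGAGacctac
Zfp950: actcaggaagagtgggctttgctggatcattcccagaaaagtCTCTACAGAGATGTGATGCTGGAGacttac
Zfp40: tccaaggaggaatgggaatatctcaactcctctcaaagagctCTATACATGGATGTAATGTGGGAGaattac
Zfp84: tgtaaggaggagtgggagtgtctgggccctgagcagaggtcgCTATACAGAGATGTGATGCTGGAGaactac
Zfp719: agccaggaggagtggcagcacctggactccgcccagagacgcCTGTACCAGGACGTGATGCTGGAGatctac

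Over these 72 bases the box of Zfp950 was identical to that of Zfp932 at 87.5% of positions, Zfp40 at 63.9%, Zfp84 at 66.7% and Zfp719 at 62.5%. Zfp932, Zfp950 and Zfp40 were among the lowest members in synaptic against nuclear RNA, and Zfp84 and Zfp719 were among the highest. The second set is 1 finger with its linker from each of the pair of members followed throughout, at chr5:110008837-110008914 (plus strand) for Zfp932 and chr17:32820541-32820618 (minus) for Zfp799. Capitals mark the codons of the linker, and the 78 bases were identical at 64.1% of positions.
Zfp932: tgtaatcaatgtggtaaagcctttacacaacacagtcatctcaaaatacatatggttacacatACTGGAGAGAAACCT
Zfp799: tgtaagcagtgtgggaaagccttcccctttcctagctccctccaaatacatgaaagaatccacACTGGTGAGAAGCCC

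Zfp932 (chromosome 5, bases 109996521 to 110010411, plus strand) has 15 finger patterns in 526 residues, and Zfp799 (chromosome 17, bases 32815449 to 32830261, minus strand) has 16 in 648. Both are KRAB-like. Of the windows of 100 bases of the coding transcript chosen for Zfp932, 27.1% also occur in transcripts of other genes, among them Gm15446. Reads of Zfp932 and Gm15446 could thus be split or lost in counting. An exon of Zfp799 overlaps a gene on the other strand, and no source used here states whether reads of the fraction tables were counted by strand. Over all members, 65 overlapped an exon of another gene and 9 shared more than 10% of their windows with another gene.

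Library totals were 31 to 56.2 M counts (M, mega) in conditional synaptic, 24.4 to 53.8 M in conditional nuclear, 26.6 to 48 M in germline synaptic, 23.2 to 50.7 M in germline nuclear, 32.9 to 56.6 M in cytosolic, 19 to 30.5 M in germline cortex and 98.1 to 134.6 M in conditional cortex libraries. Markers followed the fraction labels: in the conditional line all 16 synaptic and dendritic mRNAs listed were higher in synaptic RNA (median log2 fold change 0.66), 11 of 14 nuclear-retained RNAs were lower (median -2.08), and Malat1, which stays in nuclei, was lower by 3.09 on the log2 scale. All 9 mitochondrially encoded RNAs were higher in synaptic RNA (median 1.22), and all 11 endothelial and mural markers were lower (median -3.02). The summed endothelial and mural level was 79.2 to 123 CPM in synaptic and 449 to 1875 CPM in nuclear libraries of the 12 paired conditional animals. Chd8, the targeted gene, was lower in germline HET cortex by 0.58 on the log2 scale (adjusted p = 7.89e-05, edgeR). It did not pass elsewhere, with log2 fold changes of -0.82 in germline synaptic, -0.01 in germline nuclear, -0.43 in cytosolic, -0.52 in conditional cortex, -0.57 in conditional HOM synaptic and -0.47 in conditional HOM nuclear RNA, so the Chd8 level does not check the labels of the nuclear HET libraries. The germline synaptic value includes WT males 1 and 2, described below, at 144 and 148 CPM of Chd8. The other 9 WT synaptic libraries had 36.2 to 65.3 CPM and the 7 HET ones 25.6 to 38.8 CPM. Most neuronal and glial markers were higher in synaptic RNA of the conditional line: 5 of 6 excitatory, 6 of 6 inhibitory and 5 of 5 microglial markers were higher (medians 0.68, 1.32 and 1.24), and 4 of 5 markers were higher and 1 lower for both astrocytes (median 0.43) and oligodendrocytes (median 0.73). Those counts rest on the TMM scaling described with the members' results. With plain library totals 7 of 16 synaptic mRNAs were higher and 1 lower, 3 of 6 excitatory markers were higher and 2 lower, 1 of 5 astrocyte markers was higher and 2 lower (median -0.09), and 3 of 5 oligodendrocyte markers were higher and 1 lower. The inhibitory (5 of 6 higher), microglial, mitochondrial, nuclear-retained, and endothelial and mural lists kept the direction of their medians.

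Some libraries go against their labels. The synaptic libraries of germline WT males 1 and 2 have a nuclear profile, given in full with the germline synaptic comparison. Both libraries of conditional HET male 1 have 0 Cre reads, 1 conditional animal number bears the label HET for nuclear and HOM for synaptic RNA, and 2 germline nuclear libraries carry sex markers against their labels. The animal of 2 labels was left out of the paired fits. The WT animal with sex markers against its label was left out of the paired germline WT fit, which held 9 animals. Without the male with 0 Cre reads 178 members were still called between the fractions, 139 lower and 39 higher, and without any of these libraries in turn the genotype comparisons they enter had 0 members called, other than germline synaptic. The shares of all genes called without these libraries are not given here.

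Most Zfp transcripts were lower in synaptic than in nuclear RNA. In the conditional line, whose libraries played no part in choosing the members, 178 of the 222 differed between the fractions of the same 12 animals at an adjusted p under 0.05, of which 140 were lower and 38 higher in synaptic RNA (edgeR quasi-likelihood F test with animal as a block). Differences between these fractions were common: 78.4% of the 18078 genes tested and 84.1% of the genes at 10 CPM or more were called, against 80.2% of the members. The members stood on the lower side more often, with 63.1% called lower, against 34.6% of the genes at 10 CPM or more. Their median log2 fold change was -0.47, against 0.14 for the genes at 10 CPM or more, and 46 members were called and at least 2-fold lower, where 12% of the genes at 10 CPM or more were. In bulk RNA of this kind, fewer cells of a type in a fraction and less RNA per cell cannot be told apart.

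The direction of the members above zero depends on the scaling. TMM, the scaling used here, assumes that most genes do not differ between libraries. With plain library totals the median over all genes tested moved by -0.52 on the log2 scale, 204 members were called lower and 1 higher, and 63.7% of the genes at 10 CPM or more were called lower. The members' median minus that of the genes at 10 CPM or more was -0.61 under both scalings. CPM values are on the plain scale, so log2 ratios of CPM below lie lower than the fitted values. On that scale 178 members were lower in synaptic RNA in each of the 12 conditional animals and 193 in each of 5 germline HET animals, with 176 in both. Of the 10965 genes at 10 CPM or more, 5487 were lower in each of the 12 conditional animals, 5928 (54.1%) in each of the 5 germline HET animals and 4941 (45.1%) in both. Among the members the shares were 80.2% in the conditional animals, 86.9% in the germline HET animals and 79.3% in both.

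Zfp932 was at 9.66 CPM at the lowest, 12.4 at the median and 18.6 at the highest in synaptic libraries of the 12 conditional animals, against 63.9, 100.4 and 135 CPM in their nuclear libraries. The fractions did not overlap, and synaptic RNA was lower in 12 of 12 animals. The fitted log2 fold change was -2.42 (SE 0.10, 95% interval -2.64 to -2.20, adjusted p = 1.05e-14). Zfp799, another KRAB-like gene, had lowest, median and highest values of 16.3, 23.6 and 28.2 CPM in synaptic libraries, against 34.0, 43.0 and 57.4 CPM in nuclear libraries. Its fractions did not overlap either, and it was lower in 12 of 12 animals by a smaller amount, with a log2 fold change of -0.49 (SE 0.07, 95% interval -0.64 to -0.33, adjusted p = 1.48e-06).

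**Figure D1:**
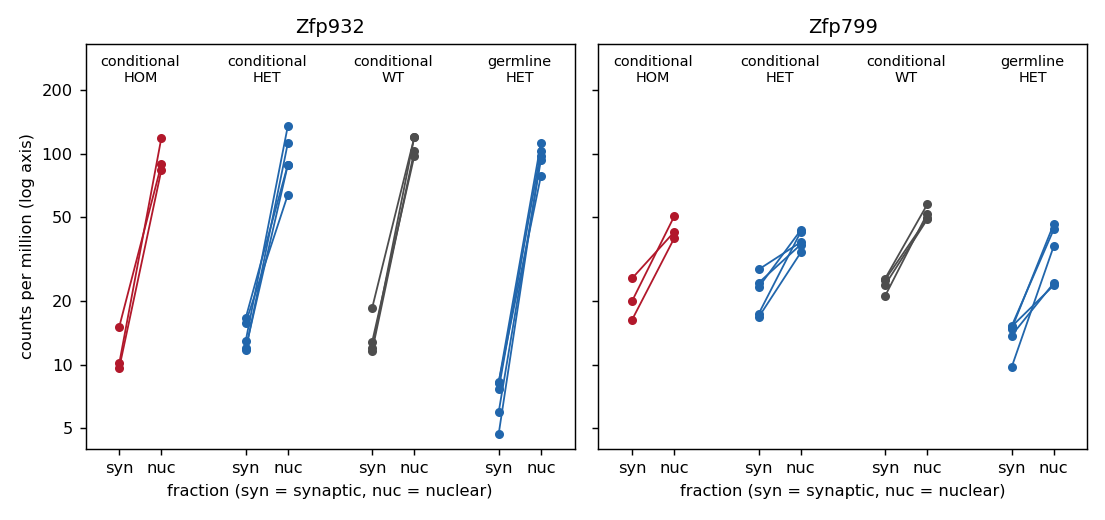
Levels of Zfp932 and Zfp799 in CPM (log axis) in the synaptic (syn) and nuclear (nuc) library of each animal, joined by a line, for conditional HOM, HET and WT and for germline HET animals. Every line ends higher in nuclear RNA, and the lines of Zfp932 are the steeper ones, with 9.66 to 18.6 CPM in conditional synaptic libraries against 63.9 to 135 CPM in nuclear ones.

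The 8 members with the lowest fold changes were Zfp366, Zfp950, Zfp57, Zfp932, Zfp182, Zfp160, Zfp692 and Zfp40, and all but Zfp366 and Zfp692 are KRAB-like. Zfp366 (DC-SCRIPT, a corepressor of nuclear receptors) was at 0.41, 0.69 and 1.03 CPM (lowest, median and highest) in synaptic libraries of the conditional animals, against 7.13, 14 and 36.4 CPM in their nuclear libraries. Its log2 fold change of -3.77 (SE 0.19, 95% interval -4.19 to -3.34) lay within the range of the endothelial and mural markers, -4.20 to -0.79, and whether endothelial RNA has a part in it was not tested. Zfp950 was at 9.41, 16.5 and 28.1 CPM in synaptic libraries, against 120.3, 187 and 279 CPM in nuclear ones, and its log2 fold change was -3.05 (SE 0.12, adjusted p = 9.11e-15). Zfp57, which keeps imprints in place, was at 2.92, 4.00 and 5.70 CPM in synaptic libraries, against 19.6, 34.2 and 49.5 CPM in nuclear ones, with a log2 fold change of -2.51 (SE 0.12). The fractions overlapped for none of these 3 genes. The other 4 had log2 fold changes of -2.10 for Zfp182 (chromosome X), -1.91 for Zfp160, -1.88 for Zfp692 and -1.78 for Zfp40 (SE 0.08 to 0.12).

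The 8 members with the highest fold changes were Zfp831, Zfp536, Zfp365, Zfp553, Zfp84, Zfp407, Zfp719 and Zfp703, and among these Zfp84 and Zfp719 are KRAB-like. Zfp831 was at 31.6, 47.3 and 56.5 CPM (lowest, median and highest) in synaptic libraries of the conditional animals, against 26.2, 32.0 and 40.6 CPM in nuclear libraries, and higher in synaptic RNA in 12 of 12 animals. Its ranges overlapped between animals, and its log2 fold change was 0.99 (SE 0.07, adjusted p = 7.44e-12). It was also the member called higher under plain library totals. For the other 7 the log2 fold changes ran from 0.54 for Zfp703 to 0.68 for Zfp536, a repressor of neuronal differentiation, and under plain totals from 0.03 to 0.16 with no call. Zfp365 (DBZ, a DISC1-binding protein in which no finger pattern was found) was at 551, 705 and 867 CPM in synaptic libraries against 519, 656 and 787 CPM in nuclear libraries, and higher in 7 of 12 animals. Its log2 fold change was 0.63 (SE 0.09) with TMM and 0.12 with plain totals.

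The most abundant members did not move together. Per kilobase of exon, mean levels in the 21 germline nuclear libraries were 106 CPM for Zfp365, 89.2 for Zfp445, 31.3 for Zfp207, 31.3 for Zfp932, 25.2 for Zfp664, 18.9 for Zfp871 and 5.35 for Zfp799. Zfp445 averaged 138 ± 20.4 CPM in conditional synaptic libraries (SD, n = 14) and 641 ± 126 CPM in conditional nuclear libraries (SD, n = 13), and fell in synaptic RNA by 1.67 on the log2 scale (SE 0.09). Zfp207 (BuGZ, a protein of the mitotic spindle) averaged 59.4 ± 7.05 CPM in synaptic and 243 ± 48.0 CPM in nuclear libraries of the same numbers, and fell by 1.48. Zfp664 fell by 0.80 and Zfp871 by 0.46, while Zfp365 was higher under TMM as given above. Zfp36 (tristetraprolin), named after its values were seen as the member with CCCH fingers, fell by 1.72 (SE 0.13).

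Germline HET animals share no library with the conditional line and gave a second measurement. Of the 222 members 175 were called in 5 paired animals, 146 lower and 29 higher in synaptic RNA, where 73% of the 18914 genes tested and 80.6% of those at 10 CPM or more were called. The share called lower was 65.8% of members, against 33.7% of the genes at 10 CPM or more. The median log2 fold change was -0.70 over the members and 0.20 over the genes at 10 CPM or more. With plain library totals 196 members were called lower and 2 higher, the median over all genes tested moved by -0.61, and 55% of the genes at 10 CPM or more were called lower.

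In the 5 germline HET animals Zfp932 was at 8.27, 8.23, 4.69, 5.96 and 7.64 CPM in synaptic RNA, against 77.9, 112, 97.7, 92.9 and 103 CPM in nuclear RNA of the same animals (females 1 and 3, then males 1, 2 and 3, here and in the sentences on other genes). It was lower in 5 of 5 without overlap, and its log2 fold change was -3.21 (SE 0.15, 95% interval -3.62 to -2.80, adjusted p = 7.21e-08). Zfp799 was at 13.8, 9.72, 14.8, 15.2 and 15.1 CPM in synaptic RNA, against 24.3, 36.4, 46.3, 43.7 and 23.8 CPM in nuclear RNA. The fractions did not overlap here either, and its log2 fold change was -0.70 (SE 0.17, 95% interval -1.18 to -0.23, adjusted p = 0.0032). Zfp831 was at 34.6, 29.3, 39.3, 44.9 and 36.5 CPM in synaptic RNA, against 26.1, 34.4, 39.4, 33.7 and 24.4 CPM in nuclear RNA, so 3 of 5 animals were higher on the CPM scale. It was called with TMM (log2 fold change 0.84, SE 0.13) and not with plain totals (0.23, adjusted p = 0.128).

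The members lowest in the conditional line were low in germline HET animals as well. Zfp366 was at 0.58, 0.76, 0.59, 0.083 and 0.89 CPM in synaptic RNA of the 5 animals, against 40.5, 17.5, 35.4, 24.4 and 29 CPM in their nuclear RNA, and its log2 fold change was -5.11. Zfp950 was at 15.6, 11.3, 6.76, 7.48 and 10.4 CPM in synaptic RNA, against 147, 211, 213, 191 and 166 CPM in nuclear RNA, with a log2 fold change of -3.61. No synaptic value of either gene reached a nuclear one. The log2 fold changes were -3.71 for Zfp57, -3.37 for Zfp692, -2.60 for Zfp182, -2.36 for Zfp160 and -2.29 for Zfp40, and among the abundant members -2.28 for Zfp445, -1.75 for Zfp207, -0.92 for Zfp871 and -0.84 for Zfp664. On the other side Zfp365 had a log2 fold change of 1.17 and was higher in synaptic RNA in 5 of 5 animals on the CPM scale, at 702 to 869 CPM against 370.1 to 692 CPM in nuclear RNA.

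Around the limit of 10 CPM the conditional log2 fold changes were mixed: -0.15 for Zfp113, 0.50 for Zfp65 and 0.01 for Zfp605 just above it, and -1.12 for Zfp995, 0.27 for Zfp111 and 0.08 for Zfp3 just below it. The signs of Zfp65 and Zfp605 turned with plain totals, to -0.01 and -0.51.

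Across the 222 members the fold changes of the 2 sets of animals lay close to a line (Pearson r = 0.97, Spearman rho = 0.97). These points are genes, not replicates, and they share gene length, composition and library preparation. The same correlation over the genes at 10 CPM or more was 0.96, so nothing particular to the members is read from it. In both sets 137 members were called lower and 26 higher, and 0 were called in opposite directions. Of the 10964 genes at 10 CPM or more tested in both sets, 3368 were called lower in both, 4660 higher in both and 77 in opposite directions, so the share lower in both was 61.7% of the members against 30.7% of these genes. Fold changes were lower in the germline HET animals, by a median over members of -0.23 for germline HET minus conditional, and this difference was not tested. The nuclear-retained list moved the same way, with a median of -4.23 in germline HET against -2.08 in conditional animals, and its part in the members' values was not tested.

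**Figure D2:**
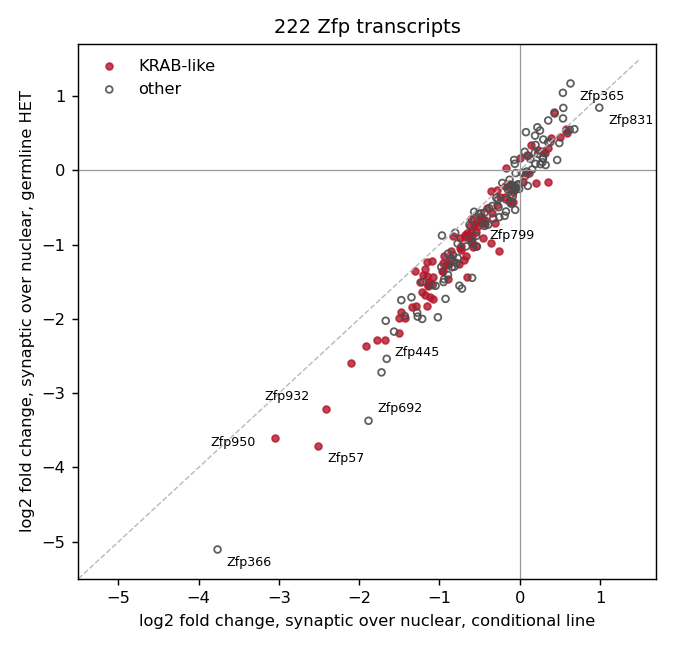
Log2 fold change of synaptic over nuclear RNA of each of the 222 members in the conditional line (x axis, 12 animals) and in germline HET animals (y axis, 5 animals), with KRAB-like members filled. Points run from Zfp366 at -3.77 and -5.11 to Zfp831 and Zfp365 above 0, most lie below the dashed line of equal values, and Pearson r is 0.97.

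In germline WT animals 163 members were called (144 lower, 19 higher), where 63% of all genes tested, 70.4% of those at 10 CPM or more and, for the lower direction, 28.8% were called. Their nuclear libraries chose the members, so these counts are given as a description only, as are the log2 fold changes of -2.34 for Zfp932 and -0.75 for Zfp799. Without WT males 1 and 2, whose synaptic libraries have a nuclear profile, 187 members were called, 159 lower and 28 higher. The share of all genes called in that fit is not given here, so these counts have no background beside them.

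KRAB-like members were lower in synaptic RNA more often than the other members. In the conditional line 81 of 104 KRAB-like members were called lower and 11 higher, with a median log2 fold change of -0.64. Of 117 members without the pattern 58 were called lower and 27 higher, with a median of -0.17. In germline HET animals 81 of 104 KRAB-like members were lower and 9 higher (median -0.95), and 64 of 117 others were lower and 20 higher (median -0.40). No test of this difference was run, since the members were chosen with results known and genes are not replicates. Summed over members, KRAB-like transcripts made up 1365 to 1987 CPM in synaptic libraries of the 12 conditional animals, against 3245 to 5169 CPM in their nuclear libraries. The sum of members without the pattern was 3166 to 4050 CPM in synaptic libraries, against 5258 to 6067 CPM in nuclear ones. Both sums were lower in synaptic RNA in 12 of 12 animals without overlap of the fractions, and the log2 ratio per animal had a median of -1.38 for KRAB-like members and -0.63 for the others.

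**Figure D3:**
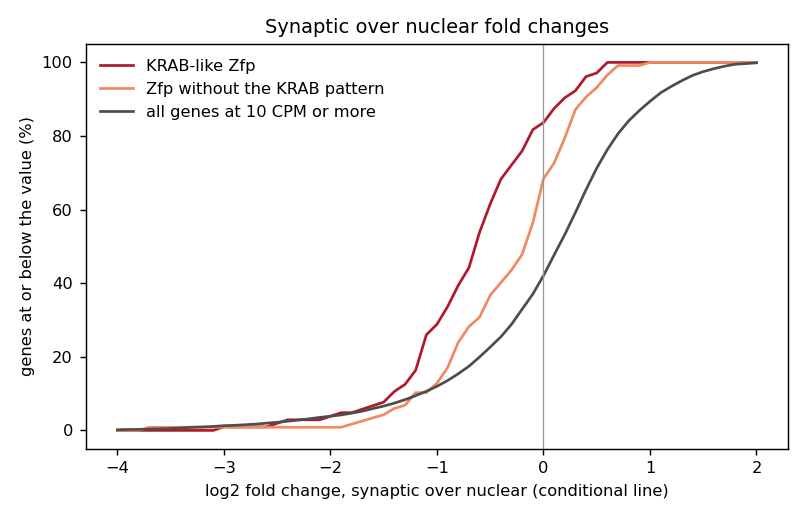
Share of genes (y axis, %) with a log2 fold change of synaptic over nuclear RNA in the conditional line at or below the value on the x axis, for KRAB-like members, members without the KRAB pattern and all genes at 10 CPM or more in germline WT nuclei. At a log2 fold change of 0 the curves stand at 83.7%, 68.4% and 42.1%, and at -1 at 28.9%, 12.8% and 12%.

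The number of fingers and the position in the genome were also set against the fold change. Among KRAB-like members the conditional median was -0.69 for the 77 with 10 or more fingers and -0.54 for the 27 with fewer. Without the pattern it was -0.29 for 41 members with 10 or more fingers and -0.14 for 76 with fewer. KRAB-like members inside clusters had a median of -0.61 (80 genes) and those outside of -0.91 (24 genes). Members without the pattern had a median of -0.44 inside clusters (39 genes) and -0.10 outside (78 genes). On chromosome 17 the median was -0.66 over 27 members and on chromosome 7 it was -0.35 over 60. As a description across genes, Spearman's rho with the conditional fold change was -0.20 for the number of fingers, 0.01 for exon length and -0.22 for the nuclear level that chose the members. The 56 members with nuclear levels of 10.5 to 18.3 CPM had a median of -0.07, while 3 groups of higher level and of 55, 55 and 56 members had medians of -0.60, -0.55 and -0.60. Nuclear RNA is also the denominator of the fold change, so level and fold change are coupled. Neither this split nor the rho of the nuclear level is read as a pattern among members.

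The direction was the same in members free of shared sequence. Of 141 members with no exon overlap and no window shared with another gene, 90 were called lower and 28 higher in conditional synaptic RNA, with a median log2 fold change of -0.52. In germline HET animals the same members gave 91 lower and 21 higher, with a median of -0.73. Of all genes at 10 CPM or more, not filtered in this way, 34.6% were called lower in conditional and 33.7% in germline HET animals. Gm15446, a gene that shares windows with Zfp932, varied far more between animals. Its level was 0.32 to 9.43 CPM in germline synaptic and 2.33 to 102 CPM in germline nuclear libraries, where Zfp932 was at 63.9 to 163 CPM. The part of Gm15446 reads in the Zfp932 counts was not tested.

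Related zinc finger genes were also mostly lower in synaptic RNA where called. Of the 152 Zfp genes below 10 CPM, 114 were tested in the conditional line, of which 54 were lower and 21 higher in synaptic RNA, with a median of -0.22. Of the Zbtb genes at any level, which pair fingers with a BTB domain, 19 of 41 tested were lower and 12 higher (median -0.14). Zkscan genes at any level, which carry SCAN and KRAB domains, had 7 of 12 lower and 1 higher (median -0.56), and of the Zscan genes 7 of 10 tested were lower and 1 higher (median -0.59). With plain library totals the medians were lower, at -0.74 for Zfp genes below 10 CPM, -0.66 for Zbtb, -1.08 for Zkscan and -1.11 for Zscan genes. At the members' limit of 10 CPM, 18 of 33 Zbtb genes were called lower and 8 higher with TMM (54.5% lower, median -0.28). Of 9 Zkscan genes at this level 6 were lower and 1 higher (66.7% lower, median -0.60). These shares stand beside 63.1% of the members and 34.6% of the genes at 10 CPM or more. Corepressor and heterochromatin genes, which include Trim28 and Setdb1, were split. Of 35 such genes 14 were lower and 14 higher in conditional animals, with a median of -0.03. In germline HET animals 16 were lower and 10 higher, with a median of -0.12. Of the genes at 10 CPM or more, 34.6% were called lower in conditional and 33.7% in germline HET animals with TMM. With plain totals these shares were 63.7% and 55%. This split holds with TMM only: with plain library totals 30 were lower and 1 higher in conditional animals (median -0.55), and 26 were lower and 1 higher in germline HET animals (median -0.73). Dnmt3a, a de novo DNA methyltransferase, was lower by 0.84 (SE 0.07) and Hdac1, a histone deacetylase, also by 0.84 (SE 0.07) in conditional animals, while Dnmt1, the maintenance methyltransferase, was higher by 0.73 (SE 0.06; 0.21 with plain totals). In germline HET animals Setdb1 fell by 1.40 (SE 0.12), Fam208a (TASOR, of the HUSH silencing complex) by 1.21 (SE 0.11) and Dnmt3a by 1.15 (SE 0.11). Trim28, which KRAB domains bind and which was named after its values were seen, had a log2 fold change of 0.41 (SE 0.07) in conditional and 0.07 (SE 0.13, adjusted p = 0.618) in germline HET animals. With plain totals its direction turned, to -0.11 (adjusted p = 0.163) in conditional and -0.54 (adjusted p = 0.00258) in germline HET animals.

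Whole cortex and cytosolic levels stand beside the fractions as values only, since these tables were not scaled together and no test was run between them. In the germline line the members summed to 4568 to 5136 CPM in HET synaptic, 7076 to 8079 CPM in whole cortex, 8943 to 9758 CPM in all 12 cytosolic and 8434 to 12784 CPM in the 21 nuclear libraries. In the conditional line they summed to 4533 to 6041 CPM in synaptic, 6030 to 6846 CPM in whole cortex and 8511 to 11196 CPM in nuclear libraries. The germline cortex sums lay between the HET synaptic and the nuclear sums, and the cytosolic sums lay within the nuclear range. The conditional cortex sums overlapped the synaptic ones only at the ends of their ranges, with medians of 6314 CPM in cortex and 5500 CPM in synaptic libraries. Zfp932 was at 4.69 to 8.27 CPM in germline HET synaptic, 9.73 to 37.1 CPM in germline cortex, 31.2 to 68.4 CPM in cytosolic and 63.9 to 163 CPM in germline nuclear libraries. In the conditional line its cortex level of 9.43 to 16.3 CPM (mean 11.7, n = 14) overlapped the synaptic level of 9.66 to 18.6 CPM (mean 13.5, n = 14), and both lay below the nuclear level. Zfp799 had 9.72 to 16.2 CPM in germline HET synaptic, 19 to 29.5 CPM in germline cortex, 28.6 to 35.0 CPM in cytosolic and 17.7 to 51.2 CPM in germline nuclear libraries, and the last 3 ranges overlap. Its conditional cortex level of 16.4 to 19.7 CPM lay within the synaptic range of 16.3 to 28.2 CPM. The nuclear-retained list summed to 4250 to 15196 CPM in cytosolic and 21212 to 33902 CPM in germline nuclear libraries, and endothelial and mural markers to 53.6 to 78.5 CPM in cytosolic libraries, against 1100.3 to 3195 CPM in germline nuclear libraries.

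**Figure D4:**
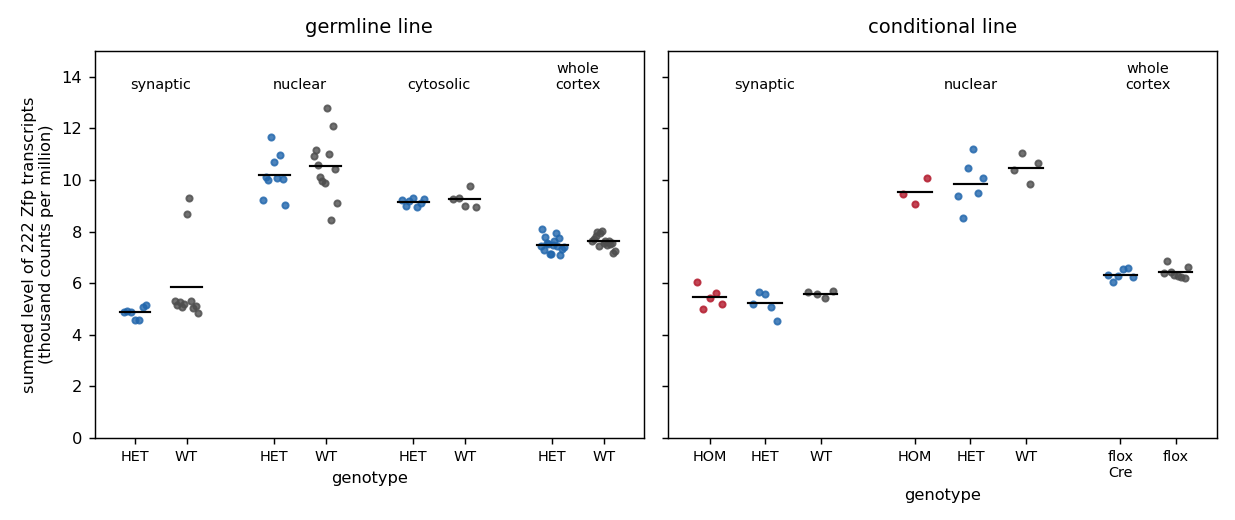
Summed level of the 222 members in each library (points, in CPM divided by 1000) by fraction and genotype, with the group mean as a bar. Conditional synaptic libraries lie at 4533 to 6041 CPM and conditional nuclear libraries at 8511 to 11196 CPM, and 2 germline WT synaptic libraries (8689 and 9320 CPM) lie among the nuclear values.

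Chd8 genotype left no member called by edgeR in any of 9 comparisons. In germline cortex 0 of 222 members passed, where 0.334% of the 17074 genes tested did. At an unadjusted p under 0.05, 28 members differed (12.6%, 6 higher and 22 lower in HET), against 8.76% of the genes at 10 CPM or more. The median log2 fold change was -0.03 over members and 0.00 over the genes at 10 CPM or more. DESeq2 called 1 member, Zfp362, in cortex and 0 in the other comparisons, and in germline synaptic RNA it gave no adjusted p for 209 members. Zfp362, named after its values were seen, averaged 30.3 ± 3.30 CPM in HET cortex (SD, n = 16) and 35.1 ± 3.5 CPM in WT cortex (SD, n = 15). Its log2 fold change was -0.21 (SE 0.05, 95% interval -0.31 to -0.10), with an adjusted p of 0.0652 by edgeR and 0.0121 by DESeq2, and the levels of the 2 genotypes overlapped.

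In germline synaptic RNA 0 members were called (0% of all genes tested) and 16 passed an unadjusted p of 0.05 (7.21%, 1 higher and 15 lower in HET), against 12.5% of the genes at 10 CPM or more. WT males 1 and 2 decide much of this comparison. Their members summed to 8689 and 9320 CPM, while 7 HET libraries had 4568 to 5136 CPM and the other 9 WT libraries 4825 to 5312 CPM. Their nuclear-retained RNAs summed to 32354 and 33991 CPM, against 833 to 2325 CPM in HET and 1508 to 3729 CPM in the other WT libraries. Zfp932 was at 4.69, 7.64 and 8.27 CPM (lowest, median and highest) in HET synaptic libraries, against 9.18, 10.1 and 14.8 CPM in the 9 other WT libraries and 85.3 and 79.6 CPM in WT males 1 and 2. The genotypes did not overlap. With all 18 libraries its log2 fold change was -0.74 (95% interval -1.41 to -0.07, adjusted p = 0.39). Without the 2 males it was -0.53 (SE 0.11, adjusted p = 0.0397), and Zfp932 was the only member then called. The share of all genes called without the 2 males is not given here, so this call has no background beside it. The nuclear-retained sum was also lower in HET than in the 9 WT libraries, with medians of 1666 and 2132 CPM, and Malat1 was at 18.2 to 89.8 CPM in HET against 55.7 to 184 CPM in these WT libraries. Zfp692, another of the lowest members between fractions, was at 3.73 to 9.93 CPM in HET against 7.22 to 22.4 CPM in the same WT libraries, which overlap. Whether the amount of nuclear RNA has a part in the Zfp932 difference was not tested.

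Zfp932 did not differ at an unadjusted p of 0.05 in the other 8 comparisons, with log2 fold changes from -0.22 in germline cortex (95% interval -0.54 to 0.10) to 0.13 in cytosolic RNA (95% interval -0.26 to 0.53). In conditional synaptic RNA its levels were 15.1, 9.66, 10.1, 11.6 and 17.7 CPM in HOM and 16.7, 15.8, 11.7, 13 and 12 CPM in HET, against 11.6, 12, 12.8 and 18.6 CPM in WT libraries. The genotypes overlapped, and the log2 fold change was -0.06 (95% interval -0.43 to 0.31) for HOM over WT and 0.02 (95% interval -0.35 to 0.38) for HET over WT.

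In conditional nuclear RNA Zfp799 was not called. Its levels were 42.5, 39.8 and 50.5 CPM in HOM and had a lowest, median and highest value of 34.0, 37.6 and 43.4 CPM in 6 HET libraries, against 57.4, 51.9, 48.8 and 49.4 CPM in WT libraries. The HET and WT levels did not overlap, and HOM levels lay between and overlapped both. The log2 fold change for HET over WT was -0.36 (SE 0.09, 95% interval -0.57 to -0.15), the smallest p among the members there at 0.00101, and the adjusted p was 0.933. For HOM over WT it was -0.19 (95% interval -0.43 to 0.06). In germline cortex Zfp799 had a log2 fold change of -0.13 (SE 0.04), with an adjusted p of 0.233 by edgeR.

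The remaining comparisons gave 0 members called, each beside 0% of all genes tested unless stated. Germline nuclear RNA, whose WT libraries chose the members and which is given as a description only, had 19 members at an unadjusted p under 0.05 (8.56%), beside 7.41% of the genes at 10 CPM or more and with 0.0151% of all genes called. Cytosolic RNA had 5 such members (2.25%, against 3% of the genes at 10 CPM or more) and conditional cortex 0 (against 1.21%). Conditional synaptic RNA had 15 for HOM over WT (6.76%, 5 higher and 10 lower, against 4.38%) and 7 for HET over WT (3.15%, against 4.58%). Conditional nuclear RNA had 19 for HOM over WT (8.56%, 3 higher and 16 lower, against 14.8%) and 10 for HET over WT (4.50%, all lower, against 4.09%). The members' shares lay on both sides of the background, some of them close to it, and no pattern among members is read from them.

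The members' median was negative in every genotype comparison, though germline nuclear RNA (-0.03), whose WT libraries chose the members, is a description only. The members' median was lowest in germline synaptic RNA, where the WT males of nuclear profile are included, and in conditional nuclear HOM RNA. The median over the genes at 10 CPM or more was negative only in conditional cortex (-0.02) and conditional synaptic HET RNA (-0.01). Elsewhere it ran from 0.00 to 0.05, and the common sign of the members was not tested. Marker lists shifted in germline synaptic and conditional nuclear HOM RNA, and also where the members' median hardly moved. The nuclear-retained median was -0.35 in conditional cortex and -0.42 in conditional synaptic HOM RNA, where the members' median was -0.02 each. In cytosolic RNA the nuclear-retained median was 0.25, beside -0.01 over members. In conditional nuclear RNA the median over members was -0.09 for HOM over WT and 0.05 over the genes at 10 CPM or more. There the median was -0.43 for the nuclear-retained list and -0.96 for the endothelial and mural list. Summed endothelial levels were 449 to 1133 CPM in HOM against 764 to 1875 CPM in WT nuclei. The inhibitory and excitatory neuron lists went the other way, with medians of 0.43 and 0.29. Zfp366 was at 15.3, 7.13 and 15.5 CPM in HOM nuclei, against 36.4, 17.7, 12.8 and 17.5 CPM in WT nuclei, which overlap, with a log2 fold change of -0.75 (SE 0.30, adjusted p = 0.426). In germline synaptic RNA the medians were -0.10 over members, 0.00 over the genes at 10 CPM or more and -0.73 over the nuclear-retained list. The part of nuclear RNA or vessels in these values was not tested.

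The synaptic to nuclear difference itself was also compared between genotypes in the 24 paired conditional libraries. For HOM against WT 0 members had a called interaction (0% of all genes tested), and 10 passed an unadjusted p of 0.05 (4.50%, 9 with a higher and 1 with a lower synaptic over nuclear ratio in HOM), against 5.58% of the genes at 10 CPM or more. For HET against WT 0 were called (0% of all genes tested) and 6 passed unadjusted (2.70%), against 2.64%. The interaction was -0.08 (95% interval -0.65 to 0.50) in HOM and 0.24 (95% interval -0.27 to 0.74) in HET for Zfp932, and -0.03 (95% interval -0.41 to 0.36) in HOM and 0.28 (95% interval -0.07 to 0.62) in HET for Zfp799, on the log2 scale.

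**Figure D5:**
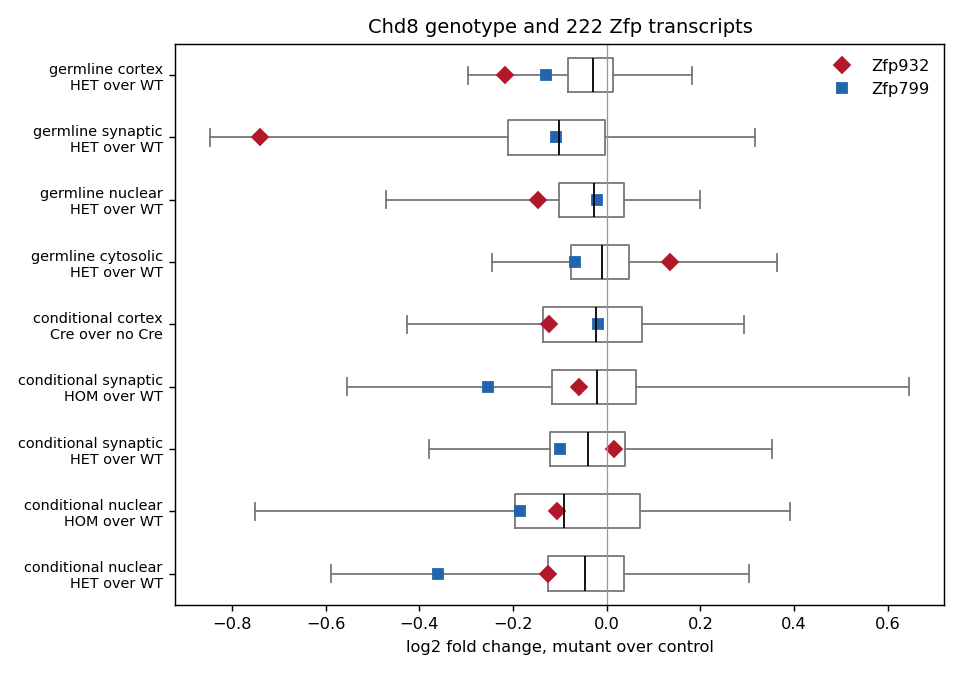
Log2 fold changes of mutant over control for the 222 members in each genotype comparison (box: quartiles and median, whiskers: lowest and highest member), with Zfp932 (diamonds) and Zfp799 (squares) marked. Medians lie between -0.10 and -0.01, and Zfp932 in germline synaptic RNA (-0.74) stands far from its other values.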

How the data were processed

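The deposited tables hold raw read counts per gene. The submitters' processing notes name STAR 2.5.4b, featureCounts 2.0.0 and GRCm38 (mm10), while the header of the conditional cortex table gives featureCounts 1.6.0 run without a strand option. Strand use in the remaining tables is stated nowhere in the sources. The gene length column is the authors' deposited exon length and served only for levels per kilobase. Of 127 labelled libraries 123 were used, and 4 labelled cytosolic libraries are not analysed here. The labels call replicates biological.

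The members and gene lists were chosen with earlier results of these data known. Counts were tested with edgeR 4.0.16 (R 4.3.3; quasi-likelihood F test, TMM, filterByExpr) and p-values adjusted by the Benjamini-Hochberg method over all genes tested. Standard errors are the log2 fold change over the square root of F, with 95% intervals. Synaptic and nuclear libraries of one animal number were paired with the animal as a block. Genotype fits held sex and, in the germline cortex table, the batch given in the labels. In the germline synaptic and nuclear tables the label batches were first merged into broader groups by the first part of the label. All 222 members passed the low-count filter in each fraction comparison. Named genes were Zfp932 and Zfp799, the 8 lowest and 8 highest called members in conditional synaptic against nuclear RNA, the 5 most abundant members, 3 genes on each side of the limit, 3 corepressors with the smallest p per fraction comparison, and Chd8 and Malat1 as checks. KRAB and finger patterns were searched in proteins translated from the annotated transcripts, with bedtools 2.31.1 for overlaps and Python 3.11.15 for the rest. Same-numbered mutant and WT libraries of a sex deviated together (every correlation over 0.1) in conditional nuclear HET against WT (4 pairs, 0.31 to 0.44) and conditional synaptic HOM against WT (4 pairs, 0.14 to 0.31), not in the other 7 comparisons. Every comparison was repeated with DESeq2 1.42.0, with RLE scaling, without the low-count filter, with the block added or dropped, in most comparisons with libraries left out and, chosen after seeing the data, with total count scaling (fractions only) and without the male with 0 Cre reads. Fits were tested on simulated data.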

Additional observations from a re-analysis of the deposited data

Results flagged for a closer look

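In conditional cortex without Cre, Zfp932 was highest in female 2, at 16.3 CPM, where the next library had 13 CPM and the lowest 10.3 CPM (n = 8). This library lay far from the others of its group by Dixon's criterion.

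In germline HET synaptic RNA, Zfp799 was lowest in female 3, at 9.72 CPM, where the next library had 13.7 CPM and the highest 16.2 CPM (n = 7). It was singled out by the same criterion. Of 33 groups of libraries tested these 2 stood apart, and chance gives about 1 in 20.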

How the results depend on the processing

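Between the fractions, 178 members were called in conditional, 175 in germline HET and 163 in germline WT animals, and every alternative gave counts within 1.5 times these. They ran from 132 in the 3 HOM animals alone to 205 with total count scaling in conditional animals, from 164 to 198 in germline HET and from 149 to 196 in germline WT animals. Leaving out each animal in turn gave 176 to 180, 164 to 176 and 149 to 174 calls. For fits on fewer animals the shares of all genes called are not given here, so their counts have no background beside them. Without the replicate block, 177, 177 and 166 members were called, and with a replicate block in the genotype fits 0 members were called in each. The split of calls depends on scaling: with total counts 1, 2 and 2 members were higher in synaptic RNA, against 38, 29 and 19 with TMM. Fold changes that reversed under total counts were those of Zfp65 (-0.012) and Zfp605 (-0.51) in conditional animals, and of Zfp536 (-0.057), Zfp553 (-0.065), Zfp84 (-0.10), Zfp407 (-0.084), Zfp719 (-0.056), Zfp65 (-0.16) and Zfp605 (-0.45) in germline HET animals. Among 744 values of named genes under alternatives, 723 kept direction and call.

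The genotype comparisons had 0 members called, with these exceptions. In germline cortex 1 member, Zfp362, was called by DESeq2 (adjusted p = 0.0121), with RLE scaling (adjusted p = 0.0484) and without HET female 5, HET female 6 or WT male 8 (adjusted p from 0.0351 to 0.0479), so leaving out each replicate gave 0 to 1 calls, and each batch alone gave 0. Without the filter on low counts 4 members were called in germline synaptic RNA (Zfp57, Zfp692, Zfp932 and Zfp950), 1 in germline nuclear RNA (Zfp366), 1 in conditional synaptic HOM against WT (Zfp950) and 3 in conditional nuclear HOM against WT (Zfp366, Zfp933 and Zfp760). The log2 fold change of Zfp932 was -0.72 there and -0.74 with the filter, while its adjusted p by edgeR was 0.00164 and 0.39. Without WT males 1 and 2, 1 member (Zfp932) was called in germline synaptic RNA. The shares of all genes called under these settings are not given here, so the counts have no background beside them. The causes were not tested. Leaving out each replicate in the other genotype comparisons in which it was run gave 0 calls. It was not run for germline synaptic, germline nuclear and conditional cortex RNA. A limit of 5 CPM would give 279 members and one of 20 CPM 159. Depth limits low values such as those of Zfp366, at 0.41 to 1.03 CPM in conditional synaptic RNA.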
